A study of Mus musculus with 207 samples.

Results

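The transcription factors that give the insulin-making beta cell of the islet its identity were described in single mouse cells. They are Pdx1, Nkx6-1, Nkx2-2, Pax6, Isl1, Neurod1, Mafa, Insm1, Foxa2 and Rfx6, 10 genes taken by name from the 44448 rows of the expression table, and all 10 were found. The table holds 207 cells from pancreatic islets of male mice, 138 from animals aged 3 months (young) and 69 from animals aged 26 months (old), and every one is called a beta cell in its label. Islet cells were caught singly on a Fluidigm C1 chip, a microfluidic device that lyses each cell and copies its RNA, with the SMARTer chemistry and Nextera XT libraries. No strain, treatment or animal is named in the sources used here, so each age counts as 1 sample: the SD given after a mean is the spread between cells, intervals cover counting error only, and no test between the ages was possible.

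A beta cell keeps its character through a set of transcription factors that bind the insulin genes, the glucose transporter and the secretory machinery, and that also hold each other's genes active. Pdx1, Nkx6-1 and Mafa are the members most tied to the mature beta cell, while Pax6, Isl1, Neurod1, Nkx2-2, Insm1, Foxa2 and Rfx6 act in several or all hormone cells of the islet. Loss of single members in mice lowers insulin, lets hormones of other islet cells appear or blocks islet development, depending on the gene.

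Of the 10, 5 are homeodomain proteins: Pdx1, Nkx6-1, Nkx2-2, Pax6 and Isl1. Pdx1, Nkx6-1 and Isl1 bind sites with the letters TAAT, Nkx2-2 has another preferred site, and Neurod1, a basic helix-loop-helix protein, binds E-boxes, for which CATCTG stands here.

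Promoters of Ins1, an insulin gene, and of Iapp, the gene of the peptide secreted with insulin, are given as targets with which the factors are compared further on. Both come from RefSeq (GRCm38.p6), run from 250 bases before to 30 bases after the transcription start on the plus strand, and lie at chr19:52264047-52264326 and chr6:142298175-142298454. Capitals mark TAAT on either strand (ATTA where it is on the other) and CATCTG.
Ins1 promoter: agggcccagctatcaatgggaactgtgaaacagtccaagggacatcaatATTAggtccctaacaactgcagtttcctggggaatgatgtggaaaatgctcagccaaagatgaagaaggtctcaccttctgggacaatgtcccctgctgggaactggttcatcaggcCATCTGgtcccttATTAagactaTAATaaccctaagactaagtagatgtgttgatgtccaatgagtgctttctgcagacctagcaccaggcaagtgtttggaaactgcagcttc
Iapp promoter: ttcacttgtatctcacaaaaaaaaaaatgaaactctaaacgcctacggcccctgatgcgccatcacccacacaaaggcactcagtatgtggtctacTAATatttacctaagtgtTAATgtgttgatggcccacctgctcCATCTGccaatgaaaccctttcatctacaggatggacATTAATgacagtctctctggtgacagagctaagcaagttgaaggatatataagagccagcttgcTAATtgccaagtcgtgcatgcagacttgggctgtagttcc
In the window of 300 bases that the RefSeq table holds, Ins1 had 3 matches to TAAT and 2 to CATCTG, of which 1 lay 42 bases after the start and so outside the printed part. Iapp had 5 matches to TAAT and 1 to CATCTG, and matches on opposite strands overlapped at ATTAAT. On either strand, TAAT was found in 58.0% and CATCTG in 17.2% of all 32851 promoters of this length, so a match is common. Among the factors themselves, 8 had 11 promoter entries, with TAAT in 7 of the entries and CATCTG in 1, that of Nkx2-2. Not matched in the promoter table were Mafa and Insm1.

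The genes of the factors lie on 5 chromosomes of GRCm38.p6, and each is annotated as protein-coding. Neurod1 (chr2:79452637-79456636), Pax6 (chr2:105668896-105698410), Insm1 (chr2:146221997-146225020), Nkx2-2 (chr2:147176485-147195434) and Foxa2 (chr2:148042877-148046969) are on chromosome 2, where the last 3 lie within 1.82 Mb. Chromosome 5 carries Nkx6-1 (chr5:101659184-101664711) and Pdx1 (chr5:147270097-147275848). Rfx6 (chr10:51677760-51730429), Isl1 (chr13:116298270-116309688) and Mafa (chr15:75745501-75748321) are each on a chromosome of their own.

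Levels are in TPM, a unit for transcript abundance that divides by transcript length and brings each cell to the same total of 1000000, so that genes can be compared with each other within a cell. The number of reads behind a value is unknown, and the number of detected genes, those at TPM 1 or above, is the only sign of depth. Its median was 4291.5 in young and 4078 in old cells, with a range of 1604 to 6654. Ins1 and Ins2 together made up a median of 54.5% (young) and 51.7% (old) of TPM, with 15.7% in the lowest of all cells, and 9 of the 10 beta-cell markers, a list that includes Pdx1 and Nkx6-1, were detected in more than 50% of cells. None of the 10 acinar, 5 endothelial, 6 stellate and 8 macrophage markers was detected in 25% of cells, but 4 of 10 alpha, 4 of 8 delta, 2 of 4 PP and 3 of 7 ductal markers were. Consecutive cell numbers fell into 8 runs that differed in technical measures. In 4 runs (cells 1 to 39, 40 to 54, 159 to 190 and 200 to 207; 54 young and 40 old cells) mitochondrial rRNA and tRNA made up 0.252% to 0.398% of TPM, and in the other 4 (84 young and 29 old cells) 0.987% to 2.72%. These are called the low and the high kind below, and values within each kind are given for the age ratios of 9 factors. Whether a run is a chip, a day or an animal is not given in the sources used here.

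All 10 factors together were a very small part of the RNA. Their summed level had a median of 195 TPM in young cells, with a range of 13.2 to 1374, and of 196 TPM in old cells, with a range of 20.6 to 1027, or 0.0195% and 0.0196% of TPM. Over all cells the order of mean levels was Isl1 (70.7 TPM), Pax6 (36.4), Insm1 (33.5), Neurod1 (30.5), Rfx6 (19.5), Foxa2 (17.6), Nkx2-2 (16.8), Nkx6-1 (10.4), Pdx1 (9.54) and Mafa (0.148). For the 9 factors above Mafa the SD between cells was 1.30 to 3.36 times the mean, and the order of means is given as a description only. The strand of the reads is not given in the sources used here, so reads of Pax6 and of Nkx2-2 cannot be told apart from those of their antisense partners where they overlap. Pax6os1 had a mean of 0.348 (young) and 0.745 TPM (old), and Nkx2-2os one of 0.0262 and 0.00368 TPM.

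**Figure D1:**
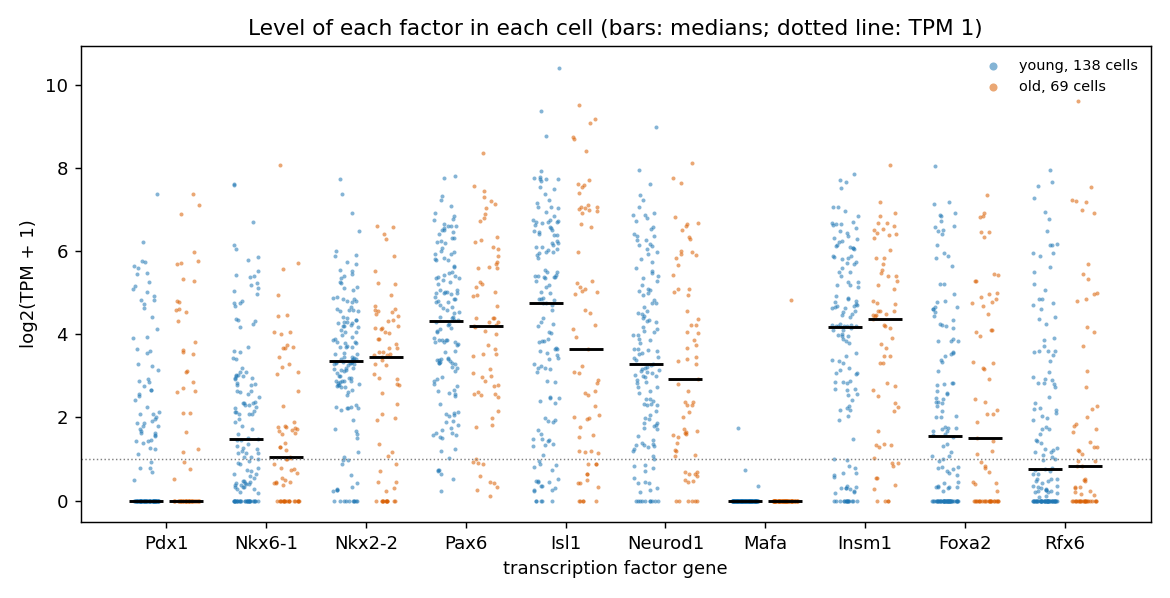
Level of each factor in each cell on a log2(TPM + 1) scale, with young cells in blue (138) and old cells in orange (69), black bars at the medians and a dotted line at TPM 1. Pax6 has no cell at 0, Pdx1 has its median at 0 in both ages, and Mafa lies at 0 in 203 of 207 cells.

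Pdx1, the homeodomain factor that starts the pancreas and later drives insulin transcription, was below TPM 1 in most cells of both ages. Its lowest level and its median were 0 in young and in old cells, and its highest was 165 TPM in both, in cell 78 (young) and cell 194 (old). It was detected in 60 of 138 young cells (43.5%, exact 95% Clopper-Pearson interval 35.1% to 52.2%) and in 30 of 69 old cells (43.5%, 31.6% to 56.0%). The share was the same at both ages, and the levels overlapped over their whole range. Where it was detected, the median was 5.98 TPM (young) and 16.0 TPM (old). The mean was 7.44 ± 18.9 TPM (SD, n = 138 cells) in young and 13.8 ± 31.0 TPM (SD, n = 69 cells) in old cells, which gives a log2 ratio of 0.81 (old against young, after adding 1 to each mean). It lay below 1.5-fold, at 0.58, without the old cells 139 to 158, and at 0.56 without the old cells 191 to 199.

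Nkx6-1, a repressor that keeps programmes of other islet cells off in the beta cell, was detected more often than Pdx1 but at similar levels. The lowest level was 0 at both ages, the median 1.801 (young) and 1.07 TPM (old), and the highest 196 TPM (young cell 22) and 267 TPM (old cell 144). It was at TPM 1 or above in 83 young cells (60.1%, 51.5% to 68.4%) and in 36 old cells (52.2%, 39.8% to 64.4%). These intervals overlap. The mean was 11.1 ± 27.3 TPM (SD, n = 138) in young and 8.99 ± 33.0 TPM (SD, n = 69) in old cells. Cell 144 alone held 43.1% of the Nkx6-1 TPM of all old cells, and the log2 ratio of -0.28 became -0.80 when the highest cell of each age was left out.

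Nkx2-2, a homeodomain factor of beta, alpha and PP cells, was spread more evenly. The lowest, median and highest levels were 0, 9.28 and 212 TPM in young and 0, 9.86 and 96.0 TPM in old cells, with means of 17.4 ± 27.3 (SD, n = 138) and 15.4 ± 21.6 TPM (SD, n = 69). It was detected in 118 young cells (85.5%, 78.5% to 90.9%) and 51 old cells (73.9%, 61.9% to 83.7%). Levels and intervals overlapped between the ages. The 3 highest cells, 51, 42 and 47, all belonged to the young run of cells 40 to 54.

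Pax6, which binds the promoters of insulin, glucagon and somatostatin, was the only factor with a level above 0 in all 207 cells. In young cells it ran from 0.168 through a median of 18.8 to 221 TPM, and in old cells from 0.0873 through 17.3 to 325 TPM. The share at TPM 1 or above was 95.7% in young (132 cells, 90.8% to 98.4%) and 85.5% in old cells (59 cells, 75.0% to 92.8%), and these intervals overlap. Its mean was 34.2 ± 41.0 TPM (SD, n = 138) in young and 40.6 ± 58.1 TPM (SD, n = 69) in old cells.

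Isl1, a LIM-homeodomain factor needed for hormone cells to mature, had the highest mean and the highest single values of the 10 factors. The lowest, median and highest values were 0, 25.9 and 1359 TPM in young and 0, 11.6 and 732 TPM in old cells. It stood at TPM 100 or above in 46 cells, 27 young and 19 old, more than any other member. The median was lower in old cells while the mean was higher, 82.4 ± 149 TPM (SD, n = 69) against 64.9 ± 140 TPM (SD, n = 138), and the mean of log2(TPM + 1) differed by -0.30 (old minus young). The detected share was 84.8% of young (117) and 79.7% of old cells (55). The direction of the age difference in Isl1 therefore depended on the measure.

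Neurod1, which acts with Pdx1 on the insulin promoter, had nearly the same mean at both ages, 30.5 ± 58.2 TPM (SD, n = 138) in young and 30.6 ± 52.5 TPM (SD, n = 69) in old cells. Its lowest, median and highest levels were 0, 8.68 and 507 TPM in young and 0, 6.56 and 274.5 TPM in old cells. It reached TPM 1 in 116 young (84.1%) and 55 old cells (79.7%).

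Mafa, a basic leucine zipper protein that marks the mature beta cell and activates insulin, was almost absent from the table. It was above 0 in 4 of 207 cells: 0.655 TPM in cell 83, 2.37 in cell 121 and 0.268 in cell 127 (young), and 27.3 in cell 157 (old). Detection was thus 1 of 138 young cells (0.725%, 0.0183% to 3.97%) and 1 of 69 old cells (1.45%, 0.0367% to 7.81%), too few for any comparison. What sets the low values of Mafa was not tested.

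Insm1, a zinc-finger repressor of endocrine cells, was the member with the smallest spread next to Pax6. Levels ran from 0 through a median of 17.1 to 230 TPM in young and from 0 through 19.7 to 269 TPM in old cells, with means of 33.0 ± 44.3 (SD, n = 138) and 34.6 ± 45.8 TPM (SD, n = 69). TPM 1 was reached in 107 young (77.5%, 69.7% to 84.2%) and 58 old cells (84.1%, 73.3% to 91.8%). In the young cells 40 to 54, however, it was detected in 3 of 15 cells (20.0%).

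Foxa2, a forkhead factor that opens closed chromatin ahead of others, reached TPM 1 in 76 young and 38 old cells, 55.1% at either age. The lowest, median and highest levels were 0, 1.92 and 264 TPM in young and 0, 1.86 and 161 TPM in old cells. The mean was 17.1 ± 37.3 TPM (SD, n = 138) in young and 18.4 ± 33.8 TPM (SD, n = 69) in old cells, which overlapped fully.

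Rfx6, a winged-helix factor upstream of islet development that also maintains calcium channels in adult beta cells, was concentrated in few cells. Its medians of 0.679 (young) and 0.767 TPM (old) were below the detection threshold, while its highest levels were 246 TPM (cell 36) and 772 TPM (cell 202). It was detected in 66 young (47.8%) and 32 old cells (46.4%). Cell 202 held 39.0% of the Rfx6 TPM of old cells. The means were 15.0 ± 38.3 TPM (SD, n = 138) in young and 28.7 ± 99.8 TPM (SD, n = 69) in old cells, a log2 ratio of 0.90. It fell to 0.40 without the highest cell of each age and to -0.0503 without the 8 old cells 200 to 207.

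Over the 9 factors whose mean reached TPM 1, which leaves out Mafa, 2 were at least 1.5-fold higher in old cells (Pdx1 and Rfx6) and 0 were lower by that much. Among all 12155 genes with such a mean, 16.8% were higher and 26.4% lower by this measure. The median log2 ratio of the 9 was 0.10 and that of all genes -0.10. Of the 7 others, Isl1 (0.34), Pax6 (0.24), Foxa2 (0.10), Insm1 (0.07) and Neurod1 (0.0041) had ratios above 0, and Nkx2-2 (-0.17) and Nkx6-1 (-0.28) below it. The SD between cells was larger than the mean for each of the 9 factors at both ages. It is a spread between cells and does not measure the error of a difference of means.

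Within the low kind of run, 2 factors were at least 1.5-fold higher in old cells and 2 lower, where all genes gave 23.8% and 34.5%. Within the high kind 4 were higher and 0 lower, where all genes gave 21.9% and 32.8%. Pdx1 was higher in old cells in both kinds, by 0.79 in the low kind (means of 3.98 in young and 7.60 TPM in old) and 1.13 in the high kind (9.66 and 22.2 TPM). Without the highest cell of each age these were 0.38, below 1.5-fold, and 1.05. Nkx6-1 had -1.76 in the low kind (12.5 and 2.99 TPM) and 0.70 in the high kind (10.2 and 17.3 TPM), but the latter rested on cell 144. Without the highest cells the ratios of Nkx6-1 were -1.52 and -0.17, so its sign in the high kind turned. Foxa2 had opposite signs in the kinds, with -1.03 (20.5 and 9.49 TPM) and 0.99 (15.0 and 30.8 TPM), and without the highest cells -1.10 and 0.88. The ratio of Rfx6 was 1.81 in the low kind (9.73 and 36.5 TPM) and -0.0282 in the high kind (18.3 and 17.9 TPM), and 1.57 and -0.25 without the highest cells. For Isl1 the low and the high kind gave -0.12 and 0.78, and 0.15 and 0.53 without the highest cells. Pax6 had 0.53 and 0.15, and Nkx2-2 -0.46 and 0.17. Neurod1 had -0.0752 and -0.0737, and Insm1 -0.0484 and 0.11. For Nkx6-1, leaving out the old cells 139 to 158, which include cell 144, gave -1.24, and leaving out the old cells 159 to 190 gave 0.37. Pdx1 was the only factor of the 9 whose ratio had the same sign under all 20 alternatives tried. Other pseudocounts and the filter on means cannot change the sign of such a ratio, and the rest reused the same cells or part of them. Each run holds cells of 1 age only, so the age difference cannot be told apart from differences between runs.

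Except for Pax6 among young runs, detection of each of the 9 factors differed more between runs of 1 age than between the ages, although runs hold as few as 8 cells. Pdx1 was detected in 20.0% to 61.5% of cells over the 4 young runs and in 12.5% to 75.0% over the 4 old runs, against 43.5% at each age. In the high kind it was found in 58.3% of young and 65.5% of old cells, and in the low kind in 20.4% and 27.5%. Nkx6-1 ranged from 20.0% to 69.2% over young and from 34.4% to 77.8% over old runs, Rfx6 from 20.0% to 63.5% and from 31.3% to 66.7%, and Foxa2 from 26.7% to 68.8% and from 43.8% to 66.7%. Pax6 varied least among young runs, from 92.3% to 100%. The 15 young cells 40 to 54, whose median of 2320 detected genes was the lowest of any run, stood apart: Insm1 had a mean of 4.08 TPM, Neurod1 of 3.86 and Rfx6 of 0.512 there. Isl1 had a mean of 138 TPM in this run, but cells 48 (1359 TPM) and 46 (660 TPM) held most of it, and the other 13 cells had a mean of 4.41 TPM. For Nkx2-2 the mean was 36.5 TPM, and 4.27 TPM in the 12 cells other than 51, 42 and 47.

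**Figure D2:**
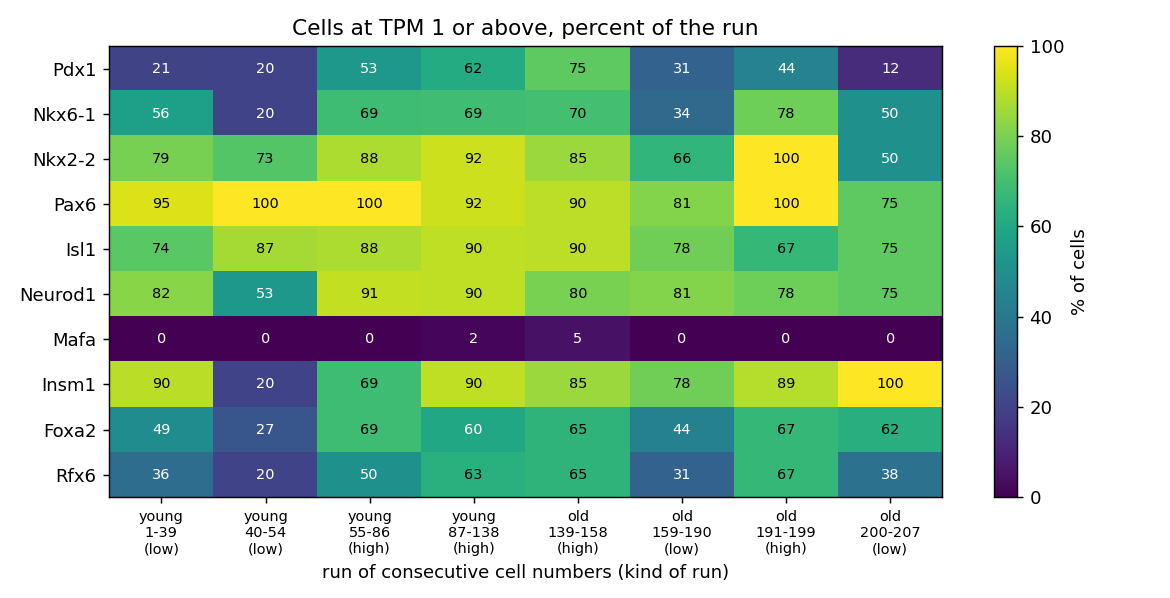
Share of cells at TPM 1 or above (colour and printed percent, rounded to whole numbers) for each factor in each run of consecutive cell numbers, with the age and the kind of run under each column. Pdx1 runs from 12.5% to 75.0% and lies higher in each high run than in each low run, and Insm1 is detected in 20.0% of young cells 40 to 54.

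A few cells held much of each factor. The 21 cells with the highest level of a factor held 78.8% of all Rfx6 TPM, 69.6% of Pdx1, 69.2% of Nkx6-1 and 64.5% of Foxa2. The share was 54.4% for Isl1, 52.6% for Neurod1, 45.4% for Nkx2-2, 41.4% for Pax6 and 41.3% for Insm1. Such shares are not given here for other genes. The 21 highest cells of any 2 factors had between 0 and 5 cells in common. The overlap was 5 for Pax6 with Foxa2 and for Nkx6-1 with Pax6. It was 0 for Nkx6-1 with Isl1, for Nkx2-2 with Neurod1 and for Insm1 with Foxa2. Sets of 21 among 207 cells share some cells without any relation, and no background overlap was computed. Genes with a mean in the same range, 9.54 to 70.7 TPM (3559 genes, the 9 factors among them), had a median detection of 46.9% of cells, with the middle 50% of genes between 33.1% and 62.8%. The 9 factors had a median of 79.7%, and 8 of them, all but Pdx1, lay above the median of those genes. Their coefficient of variation, SD over mean, had a median of 2.02 against 2.58, and of the 9 only Nkx6-1 and Rfx6 lay above 2.58. The range is set by the lowest and the highest factor, and its genes were not matched to single factors in level. How far the gaps in detection and in variation follow from level was not tested.

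How many of the 10 factors a single cell showed was counted next. Young cells had 6.35 ± 1.498 factors at TPM 1 or above (SD, n = 138), with a median of 7 and a range of 3 to 9, and old cells 6.01 ± 1.81 (SD, n = 69), with a median of 6 and a range of 1 to 9. No cell had all 10. Of the 13 cells with 9 factors, 12 lacked only Mafa, and the other was cell 157, where Mafa was highest. The old cells were spread to both ends: 20 of 69 (29.0%) had 8 or 9 factors and 13 (18.8%) had 4 or fewer, against 31 (22.5%) and 16 (11.6%) of the 138 young cells. By run the mean number was 4.20 to 5.82 in the 4 low runs and 6.75 to 7.12 in the 4 high runs, with no overlap between the kinds.

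The number of factors followed the number of detected genes. Its Spearman rho with the number of genes other than the factors was 0.59 over 207 cells, 0.64 in young and 0.48 in old cells. Within the low and the high kind it was 0.52 and 0.42. Any set of genes counted at TPM 1 tends to rise with the number of detected genes, and no other set was counted beside it. Cells were put into 4 groups of nearly equal size by detected genes. The mean number of factors was 4.83 ± 1.54 in cells with 1600 to 3641 genes (SD, n = 52), 6.02 ± 1.35 with 3656 to 4234 genes (SD, n = 52), 6.76 ± 1.16 with 4255 to 4778 genes (SD, n = 51) and 7.35 ± 1.17 with 4815 to 6646 genes (SD, n = 52). In the lowest group young cells had 4.67 and old cells 5.00 factors, and in the highest 7.47 and 7.00. Old cells with 4 or fewer factors had a median of 3301 detected genes and young ones 2537, where cells with 8 or 9 factors had 4506 and 5230.

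**Figure D3:**
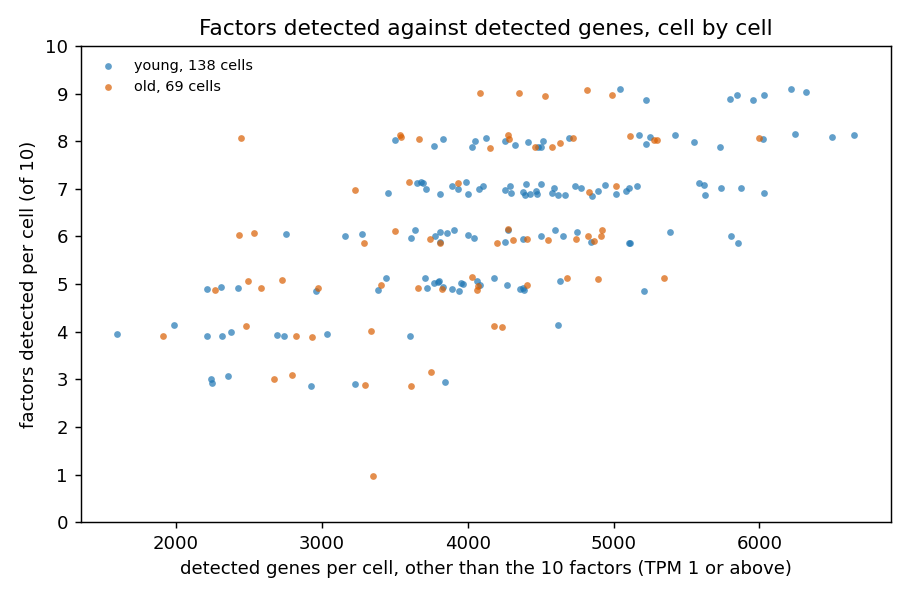
Number of the 10 factors detected in each cell (vertical axis, points shifted slightly to separate them) against the number of other detected genes (horizontal axis), young cells in blue and old cells in orange. The mean number rises from 4.83 in the cells with the fewest genes to 7.35 in those with the most, and no cell reaches 10.

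From the lowest to the highest of these groups, detection of Rfx6 went from 26.9% to 67.3%, of Pdx1 from 34.6% to 59.6%, of Nkx6-1 from 36.5% to 67.3%, of Foxa2 from 38.5% to 69.2%, of Insm1 from 57.7% to 94.2%, of Neurod1 from 61.5% to 96.2%, of Nkx2-2 from 67.3% to 96.2% and of Isl1 from 73.1% to 90.4%. Pax6 was at 86.5% in the lowest group and between 94.1% and 94.2% in the others. The level in cells that detected a factor went another way for some. For Nkx2-2 its median lay between 11.7 and 12.4 TPM in all 4 groups, while for Pax6 it was 7.89, 17.6, 28.2 and 37.0 TPM. Single factors had a rho with the number of detected genes of 0.19 (Foxa2) to 0.36 (Pax6 and Rfx6), and the median of 0.24 lay next to the 0.25 of the 3559 genes of the same range of means.

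The factors were only weakly related to each other from cell to cell. Among the 36 pairs of the 9 factors, Spearman rho over 207 cells ran from -0.07 (Pdx1 and Insm1) to 0.24 (Pax6 and Rfx6), with a median of 0.11, and 32 pairs lay above 0. Pairs of genes of the same range of means had a median rho of 0.06, with the middle 50% of pairs between 0.01 and 0.12. With the number of detected genes regressed out of both ranks, the 36 pairs had a median of 0.04 and a range of -0.14 to 0.14. The median was 0.10 in young, 0.09 in old, 0.09 in low and 0.05 in high cells. All cells share the same chip chemistry and a fixed total, and the values are sparse. Such weak correlations are given as a description only, and what sets them was not tested.

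**Figure D4:**
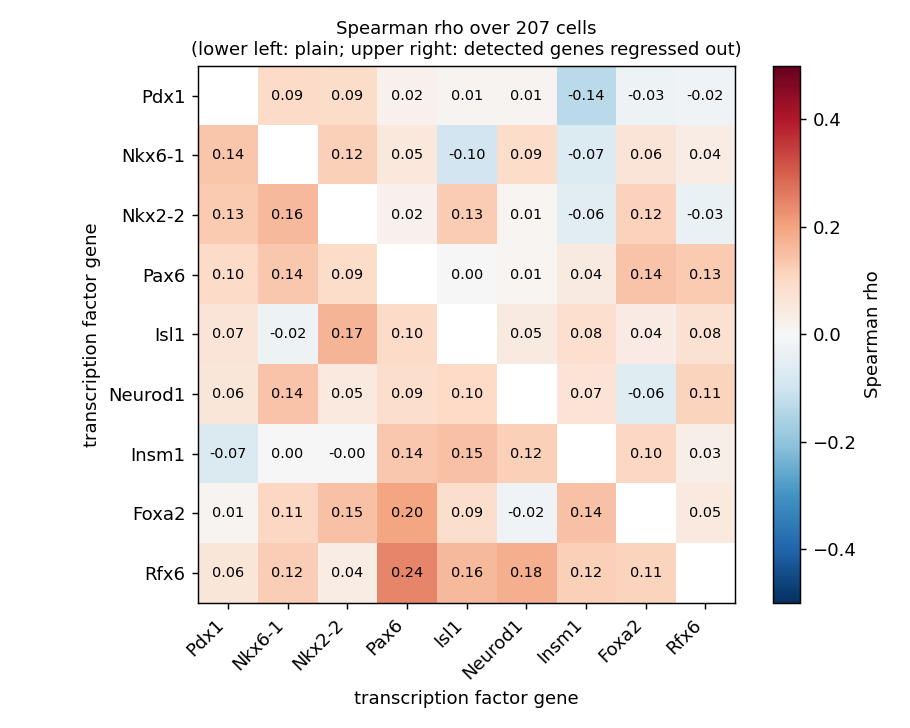
Spearman rho between the 9 factors whose mean reached TPM 1, over 207 cells, plain in the lower left and with the number of detected genes regressed out in the upper right, on a colour scale from -0.5 to 0.5. Pax6 and Rfx6 have the highest plain value, 0.24, and the values in the upper right lie between -0.14 and 0.14.

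Pdx1 and Nkx6-1 are the members whose joint presence is the usual mark of a beta cell. Both were at TPM 1 or above in 58 of 207 cells (28.0%, 22.0% to 34.7%), Pdx1 alone in 32 (15.5%), Nkx6-1 alone in 61 (29.5%) and neither in 56 (27.1%, 21.1% to 33.6%). Nkx6-1 was detected in 64.4% of the 90 cells with Pdx1 (53.7% to 74.3%) and in 52.1% of the 117 cells without it (42.7% to 61.5%), and these intervals overlap. Both were found in 39 young (28.3%) and 19 old cells (27.5%). Of the 56 cells with neither, 44 belonged to the low kind of run, against 12 of the 58 cells with both, and the median number of detected genes was 3775 against 4448.

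Insulin shares overlapped between these groups of cells. Ins1 and Ins2 together made up a median of 55.6% of TPM in cells with both factors, with a range of 27.1% to 72.8%, and of 52.4% in cells with neither, with a range of 25.8% to 78.7%. The means were 54.0% ± 9.10 (SD, n = 58) and 54.4% ± 11.4 (SD, n = 56), closer than the spread between cells. With Pdx1 alone the median was 54.0% and with Nkx6-1 alone 53.5%. In young cells the medians for both and for neither were 57.3% and 52.4%, and in old cells 53.5% and 52.1%. Iapp had a mean of 68801 ± 31428 TPM (SD, n = 58) with both and 74657 ± 37593 TPM (SD, n = 56) with neither. Slc2a2, the glucose transporter of the rodent beta cell, had a median of 118 TPM with both, 129 with Pdx1 alone, 116 with Nkx6-1 alone and 15.8 with neither. Within the low kind these medians were 9.34, 24.9, 73.8 and 12.0 TPM, in the same order, and within the high kind 172, 161, 176 and 143 TPM. Slc2a2 was chosen for mention after its values had been seen.

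**Figure D5:**
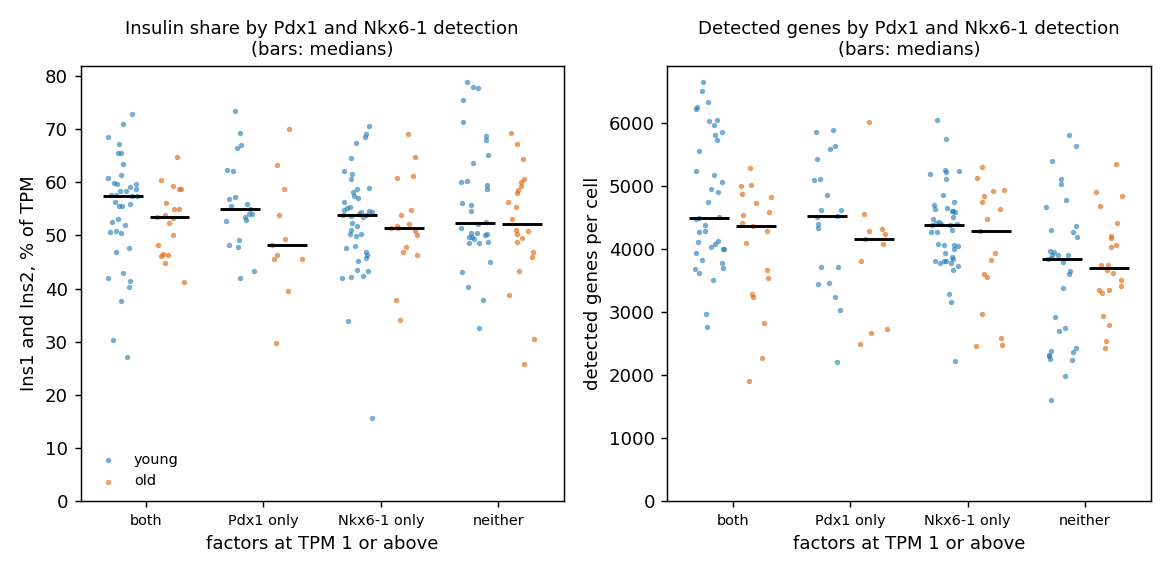
Insulin share of TPM (left, Ins1 and Ins2 in percent) and number of detected genes (right) in single cells grouped by detection of Pdx1 and Nkx6-1 at TPM 1 or above, young cells in blue, old cells in orange and bars at the medians. Insulin shares overlap across all groups, with medians of 57.3% in young cells with both and 52.4% with neither, while cells with neither have fewer detected genes (median 3775 over both ages, against 4448).

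Across all cells, the number of factors had a rho of -0.05 with the insulin share (-0.07 in young, -0.07 in old, -0.18 in low and -0.02 in high cells). With the number of detected genes regressed out it was 0.16, with 0.24 in young and 0.05 in old cells. Single factors lay between -0.18 (Pax6) and 0.02 (Pdx1), with a median of -0.09, the same as for the 3559 genes of their range. The summed TPM of the 10 factors had a rho of -0.31 and the number of detected genes one of -0.30. Insulin takes up a median of 53.9% of a fixed total, so part of any negative relation is built into the unit. Median insulin shares with and without a factor differed little: 54.9% in the 90 cells with Pdx1 and 52.6% in the 117 without, 53.9% with and 53.3% without Nkx6-1, and 53.4% with and 55.8% without Insm1. The widest gap of the 9 factors within an age was that of Rfx6 in old cells, 49.6% with and 54.9% without.

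The single insulin genes and other genes of insulin secretion, known targets of the factors among them, were set against each factor. Among 315 pairs of 9 factors with 35 such genes, rho over 207 cells ran from -0.21 (Isl1 and Ins2) to 0.31 (Insm1 and G6pc2), with a median of 0.08, and 4 pairs reached 0.3. The other 3 were Pax6 with Scg2, Isl1 with Scg2 and Nkx6-1 with Slc2a2, at 0.30 each. G6pc2 is the islet glucose-6-phosphatase and Scg2 a granule protein, and these pairs were picked for mention by their values. With the number of detected genes regressed out, rho was 0.23 for Insm1 with G6pc2, 0.18 for Pax6 with Scg2, 0.22 for Isl1 with Scg2 and 0.23 for Nkx6-1 with Slc2a2. In the high kind the first 3 of these pairs had 0.21, 0.11 and 0.22. For Nkx6-1 and Slc2a2, rho was 0.54 in old and 0.17 in young cells, and 0.23 and 0.08 within the low and the high kind. Among the genes set against Pdx1, Ins1 had the highest rho (0.23), and the median of Ins1 with and without Pdx1 was 56408 and 45746 TPM in young and 46584 and 36713 TPM in old cells. Within the kinds this gap shrank, to 39611 against 37579 TPM in low and 57451 against 52925 TPM in high cells, and rho to 0.09 and 0.06. Ins1 and Ins2 are close copies, and how reads were shared between them is not given in the sources used here. Ins2 had the lowest rho of the 35 genes for 5 factors, namely Neurod1, Pax6, Isl1, Insm1 and Rfx6. With a mean of 488953 TPM over all cells, Ins2 takes up much of the fixed total, and how far its low rho follows from that was not tested.

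Genes whose levels went most closely with a factor were named by rule, 3 for each factor among 3599 candidates, by Spearman rho over 207 cells. Pax6 had Canx, an endoplasmic reticulum chaperone (0.40), Pink1, a mitochondrial kinase (0.37), and Unc80, a subunit of a sodium leak channel (0.36). Canx itself had a rho of 0.56 with the number of detected genes, and its rho with Pax6 was 0.26 once that number was regressed out, while Pink1 kept 0.36. Rfx6 had Cisd2 (0.38), Pcnp and Dyrk1a (0.35 each), and Isl1 had Paip1 (0.37), Abcd3 and Dpysl2 (0.36 each). Pdx1 had Zscan26 (0.34), Poldip3 (0.33) and Usp22 (0.31), and Nkx6-1 had Supt16 (0.34), Hnrnpl (0.31) and Arglu1 (0.30). Insm1 had Unc80 (0.34), Cd164 (0.32) and Akirin1 (0.31), and Neurod1 had Skp1 (0.31), Cd164 and Mtmr6 (0.30 each). Nkx2-2 had Dst (0.32), Mlf2 (0.30) and Ap3s1 (0.29), and Foxa2 had Rab3b (0.30), Mrpl34 (0.29) and Elf2 (0.28). These values are the highest among 3599 candidates, whose median rho lay between 0.04 (for Nkx2-2) and 0.11 (for Pax6). All named pairs had lower values once the number of detected genes was regressed out, from 0.36 (Pink1 with Pax6) to 0.19 (Pcnp with Rfx6). With so few genes named from so many, a factor was unlikely to be named for another, and none was.

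In 7 old cells and in no young cell another islet hormone reached TPM 1000: Sst in 6 (cells 174, 179, 180, 183, 191 and 197) and Pyy in 1 (cell 206). All 7 also had 45.5% to 64.3% of TPM in insulin, and 1916 to 3749 detected genes. They showed 4 to 6 of the 10 factors. Pax6 was detected in 7 of 7, Isl1 in 6, Neurod1 and Insm1 in 5, Nkx2-2 and Foxa2 in 4, Pdx1 and Nkx6-1 in 2, Rfx6 in 1 and Mafa in 0. Cells 174, 179, 180, 183 and 206 belong to the low kind of run. Among all old cells of that kind, Insm1 was detected in 82.5%, Pax6 and Neurod1 in 80.0%, Isl1 in 77.5% and Nkx2-2 in 62.5%. Foxa2 was detected there in 47.5%, Nkx6-1 in 37.5%, Rfx6 in 32.5% and Pdx1 in 27.5%. With 7 cells, no factor can be set apart from these shares. What these cells are was not tested.

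Other transcription factors of islet cells, a list of 65 genes, had 43 members whose mean reached TPM 1. Of these 7 were at least 1.5-fold higher and 13 lower in old cells, with a median log2 ratio of -0.32 (-0.60 in the low and -0.11 in the high kind), beside 16.8% and 26.4% of all genes. Only 8 of the 65 were detected in more than 50% of cells, and 9 were at 0 in every cell. The highest means were those of Atf4 (189 TPM young, 149 TPM old) and Xbp1 (101 and 80.4 TPM), both factors of the protein-folding response, and of Tshz1 (45.4 and 26.8 TPM). Foxa3, a relative of Foxa2, had a log2 ratio of -1.85 (6.69 TPM young, 1.14 TPM old), with -0.41 in the low and -2.89 in the high kind. Tcf3, a partner of Neurod1, had a ratio of 1.31 that rested on old cell 184: this cell held 90.6% of the Tcf3 TPM of old cells, and without the highest cell of each age the ratio was -0.0877.

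Of 38 symbols for genes of insulin secretion and known targets of the factors, 37 were matched. The unmatched symbol, Ero1lb, is an older name of Ero1b, which was matched. Of the 37 genes, 35 reached a mean of TPM 1. They had a median log2 ratio of 0.0043, with 3 higher and 4 lower by 1.5-fold. Among all genes 16.8% were higher and 26.4% lower, with a median of -0.10. Ucn3, a peptide of mature beta cells, had 522 ± 533 TPM (SD, n = 138) in young and 798 ± 849 TPM (SD, n = 69) in old cells, a log2 ratio of 0.61, with 0.50 in the low and 0.71 in the high kind. Ptprn, a granule membrane protein, had one of 0.77, but 1.00 in the low and -0.28 in the high kind. Glp1r, the incretin receptor, had -1.31, with -1.35 and -1.10 in the kinds. Ffar1, a fatty acid receptor, had -1.42 from few cells, with single values of 981 TPM in young cell 28 and 176 TPM in old cell 190. Without these the means of Ffar1 were 1.88 (young) and 0.181 TPM (old), and the ratio was -1.29. Iapp was at 70065 ± 32017 TPM (SD, n = 138) and 69888 ± 34136 TPM (SD, n = 69).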

How the data were processed

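TPM values of 207 cells come from a single matrix that the authors deposited, whose columns carry the sample titles (0 unused). The submitters' processing notes name GRCm38 (mm10), CASAVA 1.8.2 and FastQC, but no aligner, read counter or annotation (not given in the sources used here). Rows are NCBI Gene numbers, and a RefSeq table (GRCm38.p6) named 39725 of the 44448, all 10 factors among them. No cell was left out, no doublet caller was run, and 0 columns were identical. Depth is unknown, since every column sums to 1000000.

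The factors and the gene lists were chosen with earlier results of these data known. A gene was called detected at TPM 1 or above. Age differences are log2 ratios of the mean in old over that in young cells, with a pseudocount of 1 TPM on each, so differences of low genes are understated. They were computed for genes whose mean reached TPM 1 in young or old cells, and 1.5-fold was counted. Intervals are exact 95% Clopper-Pearson, and their overlap does not show that shares are alike. Labels name no animal, so no p-value was computed. All 10 factors are named. For each whose mean reached TPM 1, the 3 genes most like it by Spearman rho were named, among genes with a proper symbol, a mean TPM of 5 or above and detection in 25% of cells at both ages, and a rho above 0 at each age. From the lists of other islet transcription factors and of targets and secretion genes, the 2 highest and 2 lowest ratios and the 3 highest means could be named. Some items are not reported here.

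The runs, sought once the values were known, are least-squares change points along the cell numbers in the titles, on 4 technical measures (number of detected genes, and the TPM of mitochondrial mRNAs, of mitochondrial rRNA with tRNA and of 5 nuclear noncoding RNAs), with a shortest run of 8 cells. Alternatives were other detection thresholds, pseudocounts and scalings, and leaving out cells or runs. The scripts were tested on simulated data and used Python 3.11.15, numpy 2.4.6, pandas 2.3.3 and SciPy 1.17.1.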

Additional observations from a re-analysis of the deposited data

How the results depend on the processing

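Depth behind TPM is unknown, cells of an age share their source, and an undetected factor may be present below what these libraries capture. Stricter detection lowers the number of factors per cell by construction: in young cells from 6.35 to 4.83 at TPM 5 or above and 3.70 at TPM 10 or above, and in old cells from 6.01 to 3.74 at TPM 10 or above. Pdx1 and Nkx6-1 were both detected in 39.6% of cells at any TPM above 0 and in 9.66% at TPM 5 or above, in place of 28.0%. Within the low kind of run the share was 12.8% and within the high kind 40.7%. The cause was not tested. With the number of detected genes regressed out, the rho of the number of factors with insulin was 0.16 in place of -0.05, and the cause was not tested. The log2 ratio of Rfx6, 0.90 over all cells, was -0.0503 without old cells 200 to 207, the run that holds its highest cell, -0.0282 in the high kind of run, and -0.25 there without the highest cell of each age.

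The median log2 ratio of the 9 factors ran from -0.14 to 0.37 over 20 alternatives, with the opposite sign in 6. The ratio of Neurod1 changed sign in 12, of Insm1 in 9, of Foxa2 in 6, of Isl1, Nkx2-2 and Rfx6 in 3 each and of Nkx6-1 and Pax6 in 2 each, and that of Pdx1, from 0.38 to 1.18, in 0. Other pseudocounts and the filter on means cannot change the sign of a single ratio, so part of the 20 were fixed by construction. Of 240 detection shares recomputed with cells left out, 211 stayed within the 95% interval of the value over all cells. Leaving out a run of 1 age cannot change the shares of the other age, so part of these 211 were the same by construction. At other detection thresholds, 50 of 60 shares moved outside that interval. Values within 1 kind of run, with and without the highest cells, and relations without cells of fewer than 2500 detected genes, were added after the data had been seen. No paired analysis was possible because cell numbers follow the order of the samples and do not match young with old cells.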
